A study of Mus musculus with 9 samples.

Results

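The AP-1 and Egr immediate early genes are 10 listed genes: the Fos family (Fos, Fosb, Fosl1 and Fosl2), the Jun family (Jun, Junb and Jund), the zinc finger genes Egr1 and Egr2, and Ier3. They were listed by name, with earlier results of these data known. All 10 were among the 19938 genes measured, each through 1 probe set. They were measured in 9 lines re-derived from mice that carried 4T1, a murine mammary carcinoma able to metastasize. Each line had 1 array and came from its own mouse. Of the lines, 3 came from brain metastases (4T1-BM2), 3 from lung metastases (4T1-LM2) and 3 from primary tumors (4T1-T2), and they are called brain, lung and primary lines, numbered by the mouse of that origin. The labels name no treatment and no genetic change for any line, nor the strain or age of the mice. The lines of an origin carry a common name, and if they descend from a shared selected population they are fewer than 3 independent samples. All 9 were thawed and harvested in parallel. The values therefore belong to cultures with no labelled stimulus and not to tumors in the animal.

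Immediate early genes are switched on soon after a growth factor or stress signal, with no need for new protein. Most of their transcripts decay quickly. Signals through ERK reach the ternary complex factors and the serum response factor Srf, which bind CArG boxes in front of Fos and the Egr genes, while JNK acts on Jun protein. Fos family proteins pair with Jun family proteins to form AP-1, which drives genes of proliferation, invasion and matrix breakdown. Egr proteins bind GC-rich sites and are held back by the corepressors Nab1 and Nab2. In mammary carcinoma cells AP-1 is known above all for its link to invasive behavior.

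Of 6 markers of mammary epithelium, 5 (Krt8, Krt18, Krt14, Epcam and Cdh1) lay above 4.18 in all 9 lines, and Krt5 did not. The level 4.18 is the median log2 level of the 12147 probe sets with no gene name. The same held for 5 of 8 fibroblast, 3 of 5 neuron and 3 of 5 lung epithelium markers. It held for 2 of 8 leukocyte, 1 of 6 astrocyte and 1 of 5 endothelium markers. Passing this level therefore does not by itself identify a cell type. The mean log2 level of the mammary list ran from 9.61 to 9.81 in brain, 9.14 to 9.31 in lung and 9.06 to 9.33 in primary lines. Brain lines exceeded primary lines in Krt14 (log2 change 1.62, adjusted p = 0.00568) and Cdh1 (0.90, adjusted p = 0.0386). Krt14 also had a higher mean in brain lines, 8.06, than in lung lines, 6.22 (adjusted p = 0.00631). The call of Cdh1 was lost without any 1 line except primary line 1 (adjusted p = 0.0514 to 0.113). The part of these differences in the changes below was not tested. In such bulk RNA, fewer cells with a transcript and less of it per cell cannot be told apart. For fibroblasts, leukocytes, astrocytes, neurons, endothelium and lung epithelium, no marker was called between brain and primary or between brain and lung lines, although Pdgfrb passed in brain against primary lines without brain line 1 (adjusted p = 0.0335). The mean log2 level of the fibroblast list, 8 genes with Pdgfra the highest, ran from 5.09 to 5.32 in brain, 5.19 to 5.34 in lung and 5.26 to 5.47 in primary lines, and that of the leukocyte list from 4.12 to 4.24 in brain, 4.11 to 4.29 in lung and 4.12 to 4.23 in primary lines. That of the neuron list ran from 4.83 to 5.02 in brain, 5.11 to 5.23 in lung and 5.05 to 5.08 in primary lines, lowest in brain lines with no overlap. Those of the astrocyte, endothelium and lung epithelium lists overlapped between the origins. Array medians lay between 5.06 and 5.19. The interquartile range of relative log expression, a measure of how far an array strays from the others, was widest in brain line 3 (0.178) and lung line 1 (0.164), against 0.0886 to 0.126 elsewhere. Many values are tied: 56.9% of genes had the same value in at least 2 lines.

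None of the 10 genes passed the test between any 2 origins. Limma tested every gene in 1 model of the 9 arrays, with Benjamini-Hochberg adjustment over all 19938. At an adjusted p under 0.05 the count was 0 of 10 between brain and primary lines, 0 of 10 between lung and primary lines and 0 of 10 between brain and lung lines. It was also 0 of 10 in the F test over the 3 origins. Over all genes 3.13% were called between brain and primary lines (1.56% higher and 1.57% lower in brain), 1.98% between brain and lung lines (0.913% higher and 1.07% lower in brain), 0% between lung and primary lines and 2.36% in the F test. At an unadjusted p under 0.05 there were 3 of 10 (Fosl2, Jun and Egr2) between brain and primary lines, where 15.8% of all genes reached it. There was 1 of 10 (Fosl1) between brain and lung lines, against 14.9%, and 1 of 10 (Egr2) between lung and primary lines, against 4.74%. The median log2 change of the 10 was -0.06 in brain against primary lines, -0.02 in lung against primary lines and -0.03 in brain against lung lines, beside 0.00485, 0.0128 and -0.00960 over all genes. The 95% intervals, each for 1 gene alone and not adjusted for the number of genes, refer to differences in array intensity. The processing shrinks differences of dim probe sets, so they do not bound differences in RNA. Over all 10 genes and all 3 comparisons the intervals ran no lower than 0.570-fold (Egr1, brain over primary lines) and no higher than 1.7-fold (Fosb, brain over lung lines).

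**Figure D1:**
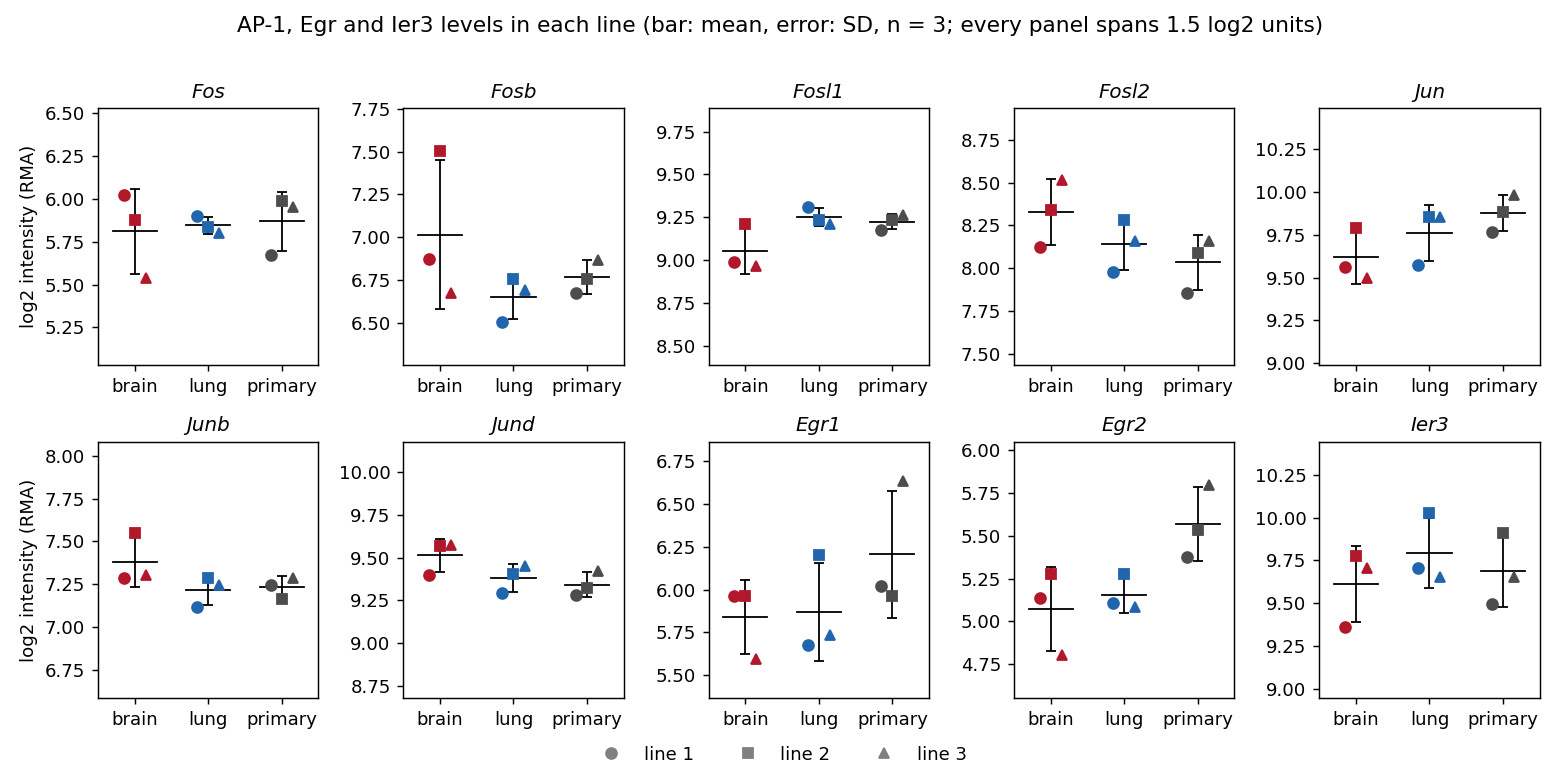
Log2 intensity of each of the 10 genes in the 9 lines, with circles, squares and triangles for lines 1, 2 and 3 of an origin, and the mean and SD of 3 lines in black. Every panel spans the same range of log2 units; in Egr2 alone the 3 primary lines lie above all other lines, and in Fosb brain line 2 stands far above the rest at 7.50.

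Fos, the partner that gives AP-1 its strong activating domain, had log2 levels of 6.02, 5.88 and 5.54 in brain lines 1 to 3, 5.90, 5.84 and 5.80 in lung lines and 5.67, 5.99 and 5.95 in primary lines. The groups overlapped, with the highest and the lowest value both in brain lines. The log2 change was -0.06 ± 0.13 (SE, n = 3 lines per origin, limma adjusted p = 0.909) in brain against primary lines, and its sign turned without brain line 3 (0.08) and without primary line 2 (0.00153). Fosb, whose short splice form accumulates after repeated stimulation in neurons, had 6.87, 7.50 and 6.67 in brain lines, 6.5, 6.76 and 6.69 in lung lines and 6.67, 6.76 and 6.87 in primary lines. Brain line 2 stood above every other line, brain line 1 lay level with the highest primary line and brain line 3 among the lung and primary lines. The log2 change was 0.25 ± 0.18 in brain against primary lines (adjusted p = 0.602) and 0.37 ± 0.18 in brain against lung lines (adjusted p = 0.394), and without brain line 2 these were 0.00561 and 0.12.

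Fosl1 encodes Fra-1, a Fos protein without the strong activating domain that is known for promoting invasion in breast cancer cells. Its log2 levels were 8.99, 9.21 and 8.96 in brain lines, 9.31, 9.24 and 9.21 in lung lines and 9.18, 9.23 and 9.26 in primary lines. Brain lines 1 and 3 lay below all other lines, and brain line 2 among them. The log2 change was -0.17 ± 0.08 in brain against primary lines (SE, adjusted p = 0.339) and -0.20 ± 0.08 in brain against lung lines (adjusted p = 0.276). Fosl2 encodes the related Fra-2 and had 8.13, 8.34 and 8.51 in brain lines, 7.98, 8.28 and 8.16 in lung lines and 7.86, 8.09 and 8.16 in primary lines. Brain lines 2 and 3 lay above all lung and primary lines and brain line 1 did not. It was 0.29 ± 0.12 higher on the log2 scale in brain than in primary lines, the highest change of the 10 (1.22-fold, 95% interval 1.01 to 1.48, adjusted p = 0.279), which did not pass.

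Promoter windows (250 bases before to 50 after a start site, RefSeq, GRCm38.p6) were found for 8 of the 10 genes, and for Fosl1 and Egr1 there is none here. They are shown where a window held 1 of the motifs by which these genes are known to be controlled, searched on both strands: AP-1 (TGANTCA), a CRE-like site (TGACNTCA, which includes the CRE itself), the CArG box and an Egr site (GCGNGGGCG). No window of the 8 genes held a match to the AP-1 pattern TGANTCA, which 8.97% of all 27025 genes with a window had. AP-1 sites with other letters are not counted by it. The Egr match was found in 2 of 8, Fosb and Fosl2, against 6.27% of all genes, and it has the same letters in both, starting 50 and 79 bases before the start site. A match describes the letters of a window and is no measure of binding. The Egr match is in capitals.
Fosb promoter, chr7:19309996-19310295, minus strand: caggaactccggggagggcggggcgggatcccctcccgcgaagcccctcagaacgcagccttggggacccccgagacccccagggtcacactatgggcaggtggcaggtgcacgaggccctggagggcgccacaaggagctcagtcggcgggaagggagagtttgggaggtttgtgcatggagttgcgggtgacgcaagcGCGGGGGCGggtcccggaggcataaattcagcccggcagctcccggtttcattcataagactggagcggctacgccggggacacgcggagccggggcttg
Fosl2 promoter, chr5:32136222-32136521, plus strand: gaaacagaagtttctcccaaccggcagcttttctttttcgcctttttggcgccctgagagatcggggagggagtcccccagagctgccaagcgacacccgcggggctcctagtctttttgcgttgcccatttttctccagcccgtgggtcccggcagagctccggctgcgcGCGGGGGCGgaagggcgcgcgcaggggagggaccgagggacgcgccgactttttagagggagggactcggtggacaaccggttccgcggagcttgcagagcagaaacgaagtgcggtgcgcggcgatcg

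Jun, the AP-1 subunit that can also pair with itself and that drives its own gene, had log2 levels of 9.57, 9.79 and 9.50 in brain lines, 9.57, 9.85 and 9.86 in lung lines and 9.77, 9.88 and 9.98 in primary lines. Brain line 2 lay just above the lowest primary line, so the groups overlapped. The log2 change was -0.26 ± 0.11 in brain against primary lines (SE, 1.20-fold lower, limma adjusted p = 0.273) and -0.12 ± 0.11 in lung against primary lines (adjusted p = 0.975). Its promoter window held a CRE-like match 45 bases before the start site, the kind found in 10% of all genes, shown in capitals.
Jun promoter, chr4:95052173-95052472, minus strand: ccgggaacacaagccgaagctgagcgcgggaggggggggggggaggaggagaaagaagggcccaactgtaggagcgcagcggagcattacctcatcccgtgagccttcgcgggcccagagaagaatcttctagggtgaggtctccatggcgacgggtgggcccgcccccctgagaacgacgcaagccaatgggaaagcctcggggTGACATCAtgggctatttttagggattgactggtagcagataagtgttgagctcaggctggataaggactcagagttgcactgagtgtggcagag

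Junb, which binds the same sites as Jun but often restrains its growth effects, had 7.29, 7.55 and 7.31 in brain lines, 7.11, 7.29 and 7.25 in lung lines and 7.25, 7.17 and 7.29 in primary lines. Its log2 change was 0.15 ± 0.09 in brain against primary lines (adjusted p = 0.490) and 0.16 ± 0.09 in brain against lung lines (adjusted p = 0.439), and without brain line 2 these were 0.06 and 0.08. The groups touched at a tied value, 7.29, in brain line 1, lung line 2 and primary line 3. Jund, the subunit that is present in resting cells and changes least upon stimulation, had 9.40, 9.57 and 9.57 in brain lines, 9.29, 9.41 and 9.45 in lung lines and 9.28, 9.33 and 9.42 in primary lines. Brain lines 2 and 3 lay above all others and brain line 1 did not. The log2 change was 0.17 ± 0.08 in brain against primary lines (1.13-fold, 95% interval 0.997 to 1.27, adjusted p = 0.333).

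Egr1, a zinc finger activator that responds to growth factors through Srf, had log2 levels of 5.96, 5.96 and 5.59 in brain lines, 5.68, 6.20 and 5.73 in lung lines and 6.02, 5.96 and 6.64 in primary lines. Primary line 3 stood above all other lines. The log2 change was -0.37 ± 0.20 in brain against primary lines (SE, adjusted p = 0.439) and -0.34 ± 0.20 in lung against primary lines (adjusted p = 0.975), and without primary line 3 it was -0.15 and -0.12. Egr2, also called Krox20 and known as the master regulator of myelination in Schwann cells, had 5.14, 5.28 and 4.80 in brain lines, 5.11, 5.28 and 5.08 in lung lines and 5.37, 5.53 and 5.80 in primary lines. All 3 brain and all 3 lung lines lay below all 3 primary lines, and brain and lung lines overlapped. Egr2 was the only 1 of the 10 whose groups did not overlap in a comparison, which held for 17.8% of all genes between brain and primary lines (8.47% lower in brain) and for 8.71% between lung and primary lines (3.84% lower in lung). Between brain and lung lines it held for 0 of 10, against 16.9% of all genes.

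In brain against primary lines the log2 change of Egr2 was -0.50 ± 0.14 (SE, 1.41-fold lower, 95% interval 0.572 to 0.878 as a ratio, adjusted p = 0.0938, n = 3 lines per origin, limma), the smallest adjusted p of the 10, and in lung against primary lines -0.41 ± 0.14 (adjusted p = 0.975). Both comparisons share the 3 primary lines. The difference did not pass in any alternative fit, where adjusted p in brain against primary lines ran from 0.0640 to 0.266. Without primary line 3 the change was -0.38 in brain and -0.30 in lung against primary lines. By size alone the Egr2 change exceeded that of 96.2% of all genes in brain and 99.0% in lung against primary lines, and the Egr1 change that of 92.9% and 98.1%, while their spread within an origin (residual SD 0.197 and 0.298 log2 units) also exceeded that of 86.6% and 97.1% of genes.

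Egr2 had 5 promoter windows, at different annotated start sites, and 4 of them held a CArG match, where 1.81% of all genes have one in any window. No window of the other genes among the 8 held one. Sequence farther upstream than the windows reach was not searched. The Fos window therefore does not show whether Fos has a CArG box farther out, and Egr1 had no window. Of the 4 Egr2 windows with a match, 3 overlap and share 1 match, so 2 windows are shown. Each has its match in capitals, 72 bases before the start site.
Egr2 promoter A, chr10:67537316-67537615, plus strand: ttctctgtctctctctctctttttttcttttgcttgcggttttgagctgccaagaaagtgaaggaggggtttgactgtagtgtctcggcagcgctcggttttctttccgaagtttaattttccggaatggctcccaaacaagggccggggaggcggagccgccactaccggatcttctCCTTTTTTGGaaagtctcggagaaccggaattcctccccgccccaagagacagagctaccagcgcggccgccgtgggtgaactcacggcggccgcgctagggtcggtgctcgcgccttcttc
Egr2 promoter B, chr10:67537619-67537918, plus strand: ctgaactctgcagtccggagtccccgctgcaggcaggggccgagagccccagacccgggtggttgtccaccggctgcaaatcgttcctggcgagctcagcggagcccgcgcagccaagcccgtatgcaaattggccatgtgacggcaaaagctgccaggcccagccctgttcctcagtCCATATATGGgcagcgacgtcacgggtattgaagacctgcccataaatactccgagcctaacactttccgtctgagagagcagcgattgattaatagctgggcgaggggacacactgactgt

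Ier3, an early response gene whose product modulates cell death and ERK signaling, had log2 levels of 9.36, 9.78 and 9.71 in brain lines, 9.71, 10.03 and 9.65 in lung lines and 9.50, 9.91 and 9.65 in primary lines. The 3 origins overlapped throughout. Its log2 change was -0.07 ± 0.15 in brain against primary lines (SE, adjusted p = 0.899) and 0.11 ± 0.15 in lung against primary lines (adjusted p = 0.985), and both signs turned when 1 line was left out, the first without brain line 1 (0.05) or primary line 2 (0.04) and the second without lung line 2 (-0.00815).

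**Figure D2:**
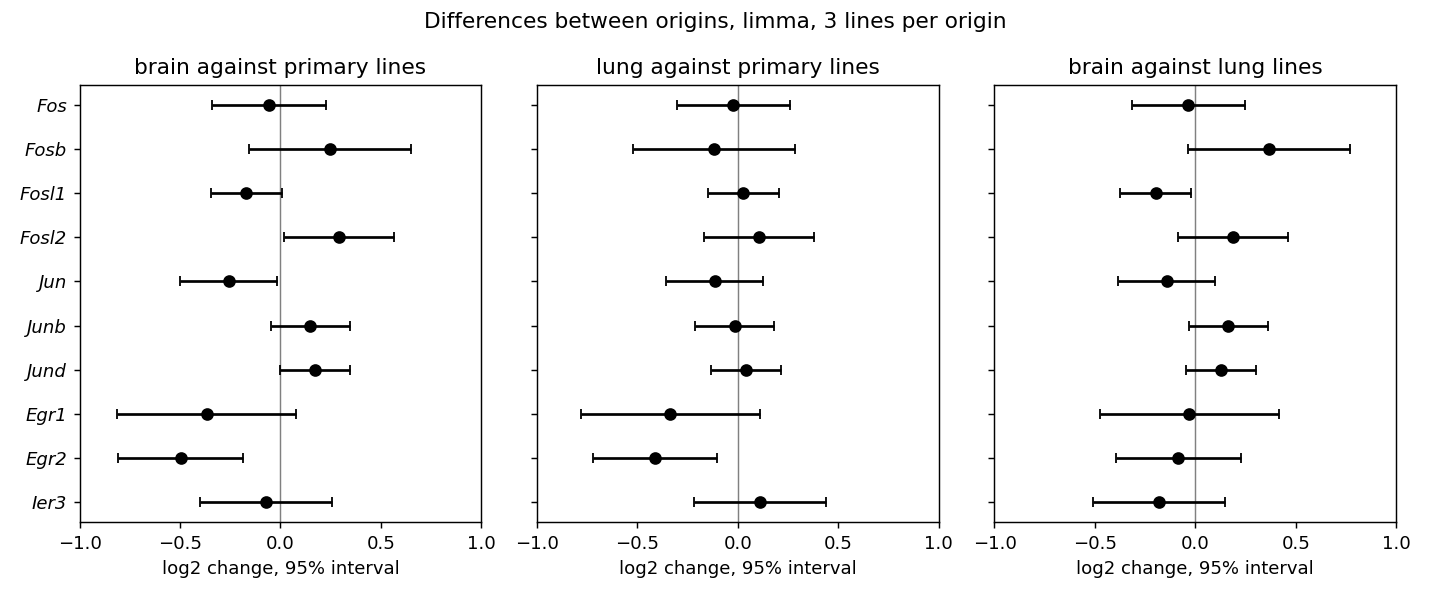
Log2 change of the 10 genes with its 95% interval from limma for all 3 pairs of origins. Intervals are widest for Egr1 and Fosb and narrowest for Jund and Fosl1, and the intervals that exclude 0 belong to Fosl2, Jun and Egr2 (brain against primary), Egr2 (lung against primary) and Fosl1 (brain against lung), none with an adjusted p under 0.05.

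The genes differed in how far lines of 1 origin spread. The residual SD, pooled over origins, was 0.298 log2 units for Egr1, 0.267 for Fosb and 0.212 for Ier3, above that of 97.1%, 95.5% and 89.5% of all genes. It was 0.0849 for Jund, 0.0871 for Fosl1 and 0.106 for Junb, above that of 23.9%, 25.5% and 39.5%. Within an origin the same line tended to be high in many of the genes: brain line 2 was the highest brain line in 7 of 10 (tied in 1), lung line 2 the highest lung line in 6 and primary line 3 the highest primary line in 8. Primary line 1 was the lowest primary line in 8. Brain line 3, the line with the widest relative log expression, was the lowest of all 9 lines in 5 of the 10 (Fos, Fosl1, Jun, Egr1 and Egr2) and the highest in 2 (Fosl2 and Jund), and the part of array quality in this was not tested. These ranks of lines were not counted over all genes, so whether they are particular to the 10 was not tested.

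**Figure D3:**
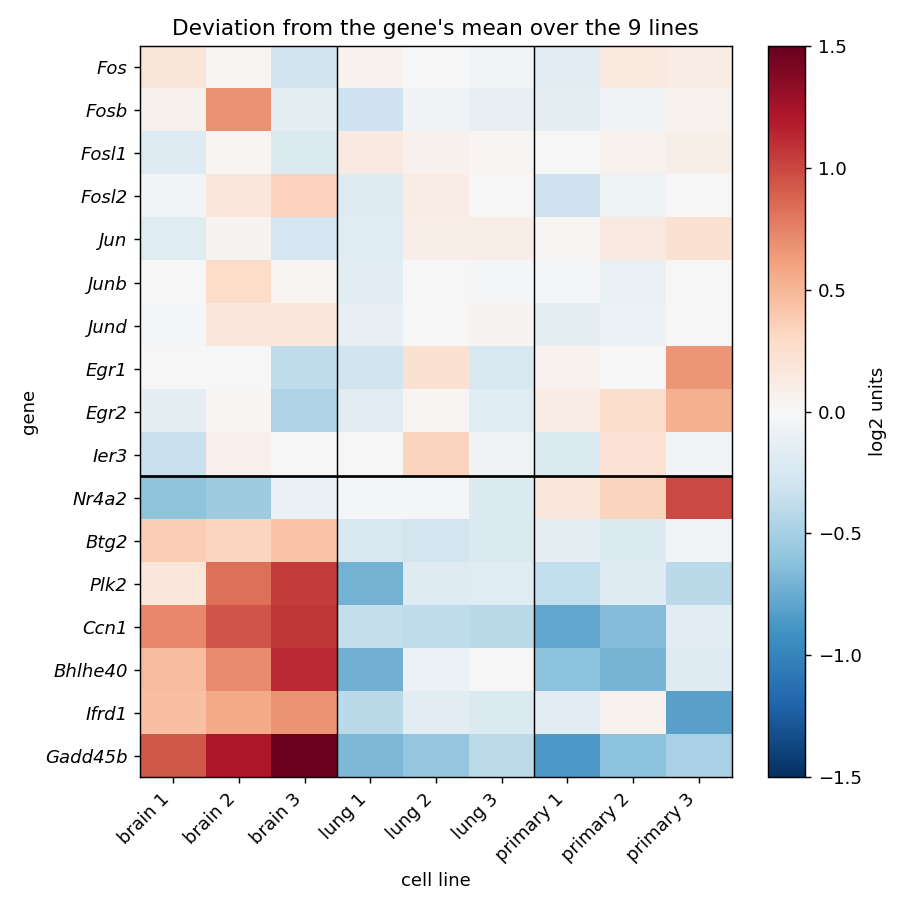
Deviation of each line from the gene's mean over the 9 lines, in log2 units, for the 10 genes (above the black line) and the 7 other immediate early genes called between brain and primary lines (below it). The 10 genes show single lines that stand out, such as primary line 3 for Egr1 and Egr2 and brain line 2 for Fosb. Of the 7 others, 6 are higher in the brain lines. They were drawn for their call, so their difference follows from that choice, and the 41 that did not pass are not drawn.

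Some other immediate early genes passed the test. Of 48 measured, 6 rose and 1 fell in brain against primary lines and 41 did not pass, which is 7 of 48 where 3.13% of all genes were called, and the list's median log2 change was 0.04. In brain against lung lines 5 rose, 0 fell and 43 did not pass, beside 1.98% of all genes, with a median of 0.16. In lung against primary lines 0 of 48 passed (4 at an unadjusted p under 0.05), with a median of -0.08. Gadd45b, a stress sensor of the p38 and JNK pathways, had log2 levels of 9.92, 10.21 and 10.48 in brain lines, 8.32, 8.41 and 8.60 in lung lines and 8.14, 8.37 and 8.50 in primary lines, so every brain line lay above every other. It was 3.64-fold higher in brain than in primary lines (log2 change 1.87 ± 0.15, SE, limma adjusted p = 8.87e-04). Ccn1, a secreted matrix protein, had 11.30, 11.51 and 11.65 in brain lines, 10.21, 10.20 and 10.17 in lung lines and 9.80, 9.92 and 10.40 in primary lines. The brain lines lay apart from the rest here too, and the change was 1.45 ± 0.15 (2.72-fold, adjusted p = 0.00166). Btg2, an antiproliferative gene, had 5.34, 5.29 and 5.40 in brain lines, 4.73, 4.70 and 4.76 in lung lines and 4.84, 4.76 and 4.93 in primary lines, a change of 0.50 ± 0.07 (1.41-fold, adjusted p = 0.00568). These 3 kept their call in brain against primary lines in all 18 alternative fits. The counts moved when single lines were left out. In brain against primary lines 4 of 48 passed without brain line 2, lung line 2, lung line 3, primary line 1 or primary line 2. In brain against lung lines 3 of 48 passed without brain line 3, any 1 lung line or primary line 1, and 7 of 48 without primary line 3.

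**Figure D4:**
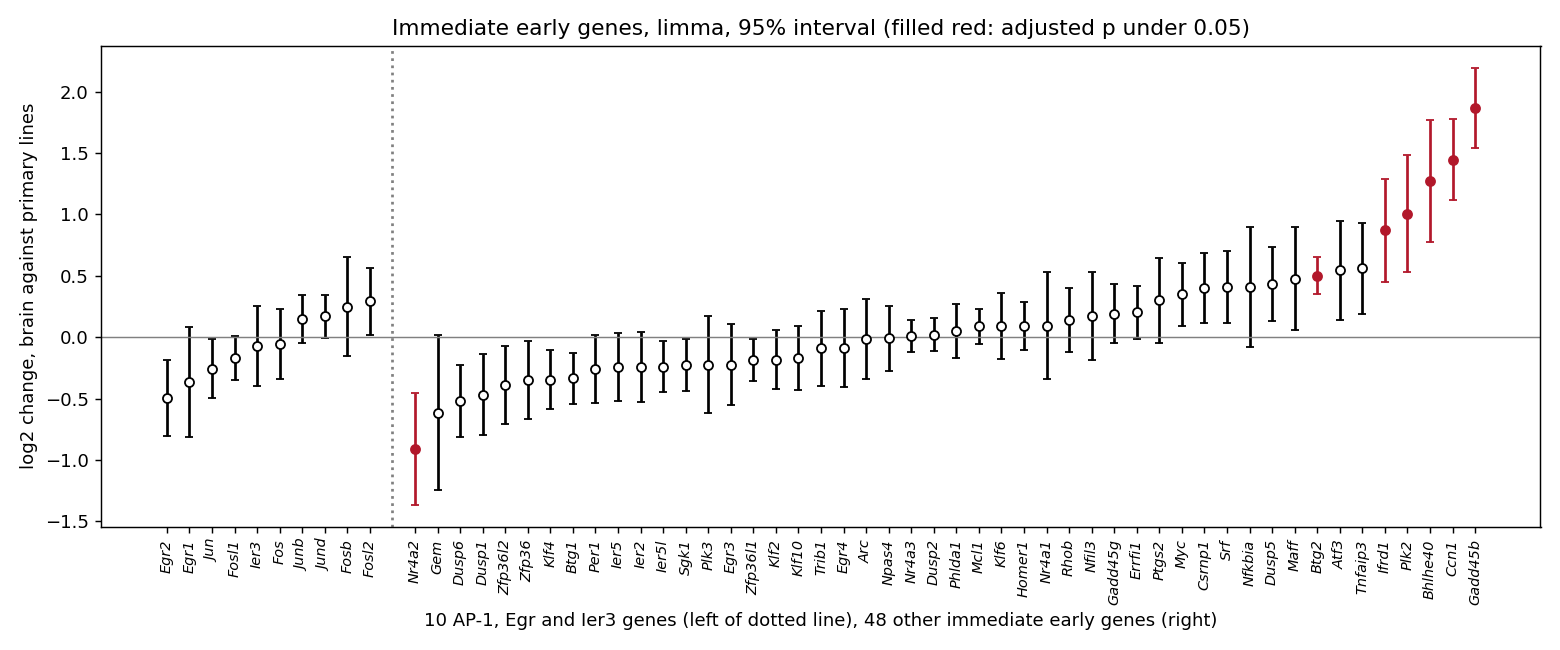
Log2 change in brain against primary lines with its 95% interval for the 10 AP-1, Egr and Ier3 genes and 48 other immediate early genes, each set in order of the change, with calls in filled red. The 10 genes lie between -0.50 and 0.29, and the 48 others between -0.91 (Nr4a2) and 1.87 (Gadd45b). The median size of the change, sign left out, is 0.210 for the 10 and 0.252 for the 48, beside 0.0871 over all genes.

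The other 4 genes of that list called in brain against primary lines lost the call when certain single lines were left out. Bhlhe40, a repressor of the clock and stress response, was 1.27 ± 0.22 higher on the log2 scale in brain than in primary lines (adjusted p = 0.0168), a call lost without brain line 2 (0.0540) or 3 (0.0524) or primary line 1 (0.0705) or 2 (0.0707). The kinase gene Plk2 was 1.01 ± 0.21 higher (adjusted p = 0.0367), lost without brain line 2 (0.115) or 3 (0.101), lung line 2 (0.0633) or 3 (0.0626), or primary line 1 (0.115), 2 (0.0874) or 3 (0.111). Ifrd1, a transcriptional coregulator, was 0.87 ± 0.19 higher (adjusted p = 0.0396), lost without any 1 brain line (0.0727, 0.105 and 0.115 for lines 1 to 3), any 1 lung line (0.0596, 0.0710 and 0.0745) or primary line 1 (0.0832). Nr4a2, a nuclear receptor of the early response, was the 1 that fell, by 0.91 ± 0.20 (adjusted p = 0.0448). Its levels were 6.0, 6.07 and 6.5 in brain lines, 6.59, 6.57 and 6.40 in lung lines and 6.76, 6.94 and 7.60 in primary lines, with the highest value in primary line 3 as for Egr1 and Egr2. The call of Nr4a2 was lost without brain line 1 (0.126) or 2 (0.134), without lung line 1 (0.0717), 2 (0.0823) or 3 (0.0777), and without primary line 2 (0.0919) or 3 (0.0771).

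Other genes with an Egr or Ier name did not pass in brain against primary lines. For the other 2 Egr genes the log2 change was -0.22 ± 0.15 (SE, Egr3, adjusted p = 0.548) and -0.09 ± 0.14 (Egr4, adjusted p = 0.863). For Ier2 and Ier5 it was -0.24 ± 0.13 (adjusted p = 0.411) and -0.25 ± 0.12 (adjusted p = 0.391). Among 14 measured genes of AP-1 partners (Atf, Batf, Jdp2 and Maf) and of the Nab corepressors, 0 passed in limma in any comparison. In brain against lung lines 1 passed under each of 5 alternatives: Atf4 with median centring (adjusted p = 0.0436), without the dimmest genes (0.0479) and with array weights (0.0239), Mafk with the replicate block (0.0494), and Atf3 without primary line 3 (0.0499). There were 6 at an unadjusted p under 0.05 in brain against primary lines, beside 15.8% of all genes, and 4 in brain against lung lines, beside 14.9%, with median log2 changes of 0.06 and 0.01. Atf3, a stress-induced partner of Jun, had 6.82, 7.38 and 7.34 in brain lines, 6.44, 6.54 and 6.55 in lung lines and 6.82, 6.85 and 6.24 in primary lines (brain against primary 0.54 ± 0.18, adjusted p = 0.162). The Egr corepressor Nab2, itself induced by Egr proteins, had 8.39, 8.47 and 8.05 in brain lines, 8.43, 8.43 and 8.33 in lung lines and 8.59, 8.43 and 8.86 in primary lines, again highest in primary line 3 (-0.32 ± 0.13, adjusted p = 0.254). Of 19 measured kinases and factors upstream, 0 passed in limma in any comparison, with 2 in brain against primary lines (15.8% of all genes) and 5 in brain against lung lines (14.9%) at an unadjusted p under 0.05. Srf itself was 0.41 ± 0.13 higher on the log2 scale in brain than in primary lines, which did not pass (adjusted p = 0.145).

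Genes known as targets of AP-1 and Egr1 changed in both directions. Of 20 measured AP-1 targets, 1 rose and 3 fell in brain against primary lines (3.13% of all genes called, median log2 change of the list -0.07), and 1 rose and 3 fell in brain against lung lines (1.98%, median -0.02). The first count, 4, was 2 without brain line 2 or lung line 2 and 1 without primary line 2, and the second was 0 without lung line 2 and 1 without lung line 3. Fitting only the 6 arrays compared, or keeping every probe set as a feature, left 1 in either comparison. The gelatinase gene Mmp9 had 8.34, 8.21 and 9.0 in brain lines, 7.34, 7.01 and 7.20 in lung lines and 7.04, 7.04 and 6.91 in primary lines, and rose by 1.52 ± 0.18 on the log2 scale against primary lines (adjusted p = 0.00336). The stromelysin gene Mmp3 fell (-2.23 ± 0.38, adjusted p = 0.0145, and 0.0639 without primary line 2), as did the collagenase genes Mmp13 (-0.93 ± 0.19, adjusted p = 0.0294) and Mmp1a (-1.31 ± 0.26, adjusted p = 0.0282). Mmp13 and Mmp1a each lost the call in 6 of the 9 fits that left out a line. Both lost it without brain line 1 (0.0577 and 0.0642), 2 (0.0592 and 0.0670) or 3 (0.0843 and 0.0904), lung line 2 (0.0575 and 0.0560) or primary line 2 (0.0758 and 0.0626). Mmp13 also lost it without primary line 3 (0.0785), and Mmp1a without primary line 1 (0.0581). In brain against lung lines Ccl2, a chemokine gene, was lower (-1.08 ± 0.16, adjusted p = 0.0146), a call lost without lung line 2 (0.0768) or 3 (0.0574). Its levels were 4.71, 4.65 and 4.52 in brain lines, 5.34, 5.87 and 5.90 in lung lines and 5.04, 5.05 and 4.61 in primary lines. The lung lines were thus the highest. Against primary lines the log2 change was -0.27 in brain (adjusted p = 0.493) and 0.80 in lung lines (adjusted p = 0.975), and neither passed.

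Of 12 measured Egr1 targets, 4 rose and 1 fell in brain against primary lines (3.13% of all genes called, median log2 change of the list 0.26). In brain against lung lines 3 rose and 1 fell (1.98%, median 0.26). Egr1 itself did not pass in either comparison. The growth factor gene Pdgfb rose by 1.67 ± 0.23 on the log2 scale in brain against primary lines (adjusted p = 0.00568). Thbs1, a matrix glycoprotein, rose by 1.16 ± 0.10 (adjusted p = 0.00116). F3, which encodes tissue factor, rose by 0.93 ± 0.17 (adjusted p = 0.0222), a call lost without brain line 2 (0.0743) or 3 (0.0740) or primary line 1 (0.0793) or 3 (0.0808). The fourth rise was that of Gadd45b, and the fall that of Id3, an inhibitor of DNA binding (-1.33 ± 0.16, adjusted p = 0.00337). Both target lists hold genes that other factors control too, and they were chosen with results of these lines known. The calls over all genes, against which these counts are read, were 311 higher and 313 lower in brain against primary lines, or 313 higher and 199 lower with each array centred on its median, and 182 higher and 213 lower in brain against lung lines.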

How the data were processed

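Biotin-labelled RNA of 9 cell lines was hybridised to 1 array each, per the labels. RMA, named in the submitters' processing notes, gave the deposited log2 intensities. Its version, the build and the log base are not given in these sources, and the log base was read from the values. RMA brings arrays to a common distribution and summarises the probes of a set, which shrinks differences of dim sets. With no depth or detection p, precision is limited by how many arrays there are.

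Of 35557 probe sets, 21789 had 1 gene symbol in the platform annotation, 1621 several and 12147 none. For the 999 genes with several, the probe set with the highest mean was used, which left 19938 genes. Symbols were updated through a GRCm38.p6 gene table by gene ID. Limma 3.58.1 in R 4.3.3 (lmFit, eBayes, two-sided) used all 9 arrays at once, 1 coefficient for each origin (6 residual and 3.72 prior degrees of freedom). A call is an adjusted p under 0.05 (Benjamini-Hochberg, all genes tested). No exact permutation test is given, since 3 against 3 reaches no p below 0.1.

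The 10 genes and the lists (130 symbols, 118 measured, the rest not analysed here) were chosen with earlier results of these data known. The naming rule took all 10 genes and up to 6 called genes per list and comparison. Outside the rule, Egr3, Egr4, Ier2, Ier5, Atf3, Nab2 and Srf, which missed the call, and Atf4, Mafk, Pdgfrb and the genes named under the replicate block were picked with their values known. The rule also asked for genes most like any called member, of which there were none. Same-numbered lines deviated together between brain and lung lines (r = 0.284, 0.130 and 0.241 across genes, each over 0.1, from the data and not the labels). They did so in no pair of brain and primary lines (0.0666, -7.36e-04 and -0.0442) and in 1 pair of lung and primary lines (0.221, 0.0785 and 0.00798). Alternatives were every probe set, quantile normalization again, median centring, no dim genes (lowest 33.3%), array weights, a robust prior with intensity trend, the replicate block, only the 6 arrays compared, each line left out, and, added after seeing the data, brain line 3 and lung line 1 left out together.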

Additional observations from a re-analysis of the deposited data

Results flagged for a closer look

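For 12 of the genes named above, the change in brain lines differed from the change in lung lines, both taken against primary lines. That difference equals brain against lung lines, tested by limma (3 lines per origin), and over all genes 1.98% were called in it. The 12 were named above for a call in some comparison, this 1 included. Their list is thus selected on the same test and adds no further evidence. None of the 10 AP-1, Egr and Ier3 genes is among them. The log2 difference was positive for Gadd45b (1.76, adjusted p = 0.00187), Pdgfb (1.58, adjusted p = 0.0109), Mmp9 (1.33, adjusted p = 0.00899), Ccn1 (1.29, adjusted p = 0.00529), Plk2 (1.05, adjusted p = 0.0398), Bhlhe40 (1.04, adjusted p = 0.0494), Thbs1 (0.94, adjusted p = 0.00453) and Btg2 (0.61, adjusted p = 0.00499). It was negative for Mmp3 (-2.32, adjusted p = 0.0193), Id3 (-1.29, adjusted p = 0.00633), Mmp13 (-1.10, adjusted p = 0.0214) and Ccl2 (-1.08, adjusted p = 0.0146). Gadd45b, Btg2 and Id3 kept the call in all 18 alternative fits. Bhlhe40 kept it in 6 of 18, and among the fits without 1 line only without primary line 3. Plk2 kept it in 7 of 18, and among those fits only without brain line 1. Without lung line 2 the adjusted p was 0.0516 for Pdgfb, 0.0528 for Mmp9, 0.0931 for Mmp3, 0.0955 for Mmp13 and 0.0768 for Ccl2. Without lung line 3 it was 0.0574 for Mmp3 and for Ccl2 and 0.0797 for Mmp13. Mmp3 also lost the call without lung line 1 (0.0698) and Mmp13 without brain line 3 (0.0640). Groups of 3 lines are too small for a test of single outlying lines.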

How the results depend on the processing

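Across 18 alternatives none of the 10 AP-1, Egr and Ier3 genes passed in any comparison (540 values, 0 called), and 26 of these values turned sign, all in genes whose log2 change was at most 0.11 in size. Of 27 calls of other named genes, 10 held in every alternative. The count of genes called between brain and primary lines was 624, and it was 246 with every probe set, 197 with only the 6 arrays compared, 323 without both brain line 3 and lung line 1, and 273 to 556 when 1 line was left out (338 without brain line 2, 413 without brain line 3, and 319, 273 or 366 without primary line 1, 2 or 3). Between brain and lung lines it was 395, with 92, 107 and 87 in the same alternatives and 69 to 417 when 1 line was left out (208 without brain line 2, 217 without brain line 3, and 136, 69 or 142 without lung line 1, 2 or 3). Of the other immediate early genes 7 were called in brain against primary lines, with 3, 3 and 4 in those alternatives and 4 to 5 when 1 line was left out, and 5 in brain against lung lines, with 3 with every probe set, 2 without both lines and 3 to 7 when 1 line was left out. The causes were not tested. With the replicate block, the mouse number of the labels, 839 genes were called between brain and primary and 566 between brain and lung lines, in place of 624 and 395. No call of the 10 genes or of the other genes named by the rule changed with it. Of the further list and marker genes, Cdh1 lost its call in brain against primary lines (adjusted p = 0.0538), Gem and Hpse gained one in both brain comparisons, and Nfil3, Mafk and Map2 in brain against lung lines. Without both brain line 3 and lung line 1, the AP-1 targets called in brain against primary lines were 2 and the Egr1 targets called in brain against lung lines were 2. The 3 lines per origin and dim probe sets (Fos, Egr1 and Egr2 lie within 2 log2 units of the unnamed probe sets' median) limit what could be detected. Among called genes, Btg2, Mmp1a, Ccl2, Mmp13 and F3 also lie within 2 log2 units of that median, 4.18. Mmp1a had 4.53, 4.58 and 4.20 in brain lines, close to it.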
